A study of Mus musculus with 32 samples.

Results

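Epithelial surface proteins and the matriptase protease system were followed at the RNA level through 8 mouse genes: Epcam, Muc1, Cd24a, Cd44, St14, Spint1, Spint2 and Prss8. The members were every probe set that the platform annotation assigned to exactly 1 of these symbols, which gave 15 of the 45037 probe sets on the array without controls. Of these, 11 probe sets for 6 genes passed the filter on low signal, among 25432 probe sets that passed in all. Spint1 and Prss8 had no probe set that passed, so they are described but were not tested.

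These genes encode proteins that sit on, or guard, the surface of epithelial cells. Matriptase (St14) is a serine protease anchored in the membrane, prostasin (Prss8) is a serine protease held by a lipid anchor that acts in the same cascade, and the Kunitz-type inhibitors HAI-1 (Spint1) and HAI-2 (Spint2) hold the cascade in check. EpCAM is an epithelial adhesion protein that matriptase can cleave, Muc1 is a transmembrane mucin of the apical surface, Cd24a encodes a small and heavily glycosylated surface protein, and Cd44 encodes a hyaluronan receptor whose variable exons are spliced differently in epithelial and mesenchymal cells. Mammary epithelium uses several of them as cell-state markers, with EpCAM, CD24 and CD44 among the surface proteins by which its populations are usually sorted.

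The cells were NMuMG, an untransformed mouse mammary gland epithelial line, and E1KD, its derivative in which the RNA-binding protein hnRNP E1 was knocked down. Each line was left untreated or given TGFβ2 at 5 ng/ml for 24 h, TGFβ being the cytokine that drives the epithelial-mesenchymal transition (EMT). From each of these 4 states, total RNA, RNA of the pooled monosomal (M) gradient fractions and RNA of the pooled polysomal (P) fractions were hybridised, and from NMuMG cells, untreated or treated, RNA precipitated with α-hnRNP E1 antibody or with mouse IgG, in 16 conditions of 2 biological replicates each, or 32 arrays. The comparisons asked which transcripts changed in amount with TGFβ or with loss of hnRNP E1, which moved between the M and P pools, and which came down with hnRNP E1. Whether E1KD was 1 clone is not given in the sources used here, so a difference between the lines cannot be told apart from a difference between 1 derivative and its parent. With RNA from whole cultures, fewer cells with a transcript and less transcript per cell cannot be told apart either.

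Signal is given as log2 of the normalised (RMA) value, in which a difference of 1 is a doubling. The median of all values was 5.52, and array medians ran from 5.36 to 5.7. Replicate arrays correlated at 0.974 to 0.998 across the probe sets that passed the filter. Pcbp1, the gene for hnRNP E1, read from 13.08 to 13.12 in untreated NMuMG total RNA against 10.79 to 10.86 in E1KD, and 13.14 on both arrays against 9.33 to 9.55 after TGFβ, so the lower Pcbp1 of E1KD was seen in both states. The epithelial markers were present: all 8 luminal markers passed the filter, with Krt8 at 14.2 and Cdh1 at 12.42 in untreated NMuMG cells, whereas 4 of 9 basal, 1 of 8 fibroblast, 4 of 6 leukocyte, 1 of 5 endothelial and 0 of 3 adipocyte markers did. In total RNA the summed log2 signal ran from 77.01 to 86.285 over the luminal list, from 44.67 to 46.185 over the basal list and from 36.54 to 37.45 over the fibroblast list. It ran from 31.78 to 34.125 over the leukocyte list, from 21.435 to 22.495 over the endothelial list and from 11.755 to 12.13 over the adipocyte list. These lists hold 8, 9, 8, 6, 5 and 3 genes, so the sums cannot be compared between lists. Ptprc, Pecam1, Cdh5 and Adipoq were below the overall median in all 4 groups, while the leukocyte-listed Cd68 read 6.575 and 5.97 in NMuMG and 8.31 and 7.08 in E1KD (untreated, treated), Laptm5 6.615 to 7.125, and the endothelial Kdr 5.435 to 5.655. The part of these markers in the members' results was not tested. Of the 8 luminal markers 0 were higher and 4 lower in untreated E1KD against NMuMG cells, against 15.8% and 13.5% of all probe sets. In treated cells 1 was higher and 3 lower, against 14.7% and 12.5%. Krt7 went from 11.14 in untreated NMuMG cells to 8.52 in untreated and 5.06 in treated E1KD cells. In the same 3 groups Krt8 read 14.2, 14.14 and 14.38, Krt18 14.35, 14.3 and 14.42, and Cldn4 5.83, 6.465 and 5.705. Ehf read 6.975, 5.09 and 6.44 there, Cdh1 12.42, 11.83 and 12.2, Krt19 12.31, 11.9 and 11.86, and Elf3 6.525, 6.35 and 6.945. In treated NMuMG cells Krt7 read 11.21, Krt8 14.34, Krt18 14.46 and Cldn4 8.355. Ehf read 7.535, Cdh1 12.46, Krt19 11.26 and Elf3 6.665 in that group.

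The members fell into genes with strong signal in every array and genes near background. Cd24a, Cd44, Muc1 and Spint2 stood above the overall median in all 32 arrays. Epcam was represented by 2 probe sets that did not read alike: 1447899_x_at lay between 5.59 and 7.58 and was above the median in 32 arrays, whereas 1416579_a_at lay between 4.42 and 5.72 and was above it in 1 array. The suffix of the first marks probes that can also match other transcripts, so its signal may not be EpCAM alone, and the part of other transcripts in it was not tested. Spint2 1438968_x_at, which stands for its gene, and Cd24a 1437502_x_at carry the same suffix, and other transcripts in their signal were not tested either. St14 was above the median in 19 arrays, Prss8 in 2 and Spint1 in 1. Among the luminal markers, Elf3 (6.525), Ehf (6.975) and Cldn4 (5.83) also lay near the overall median in untreated NMuMG cells.

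**Figure D1:**
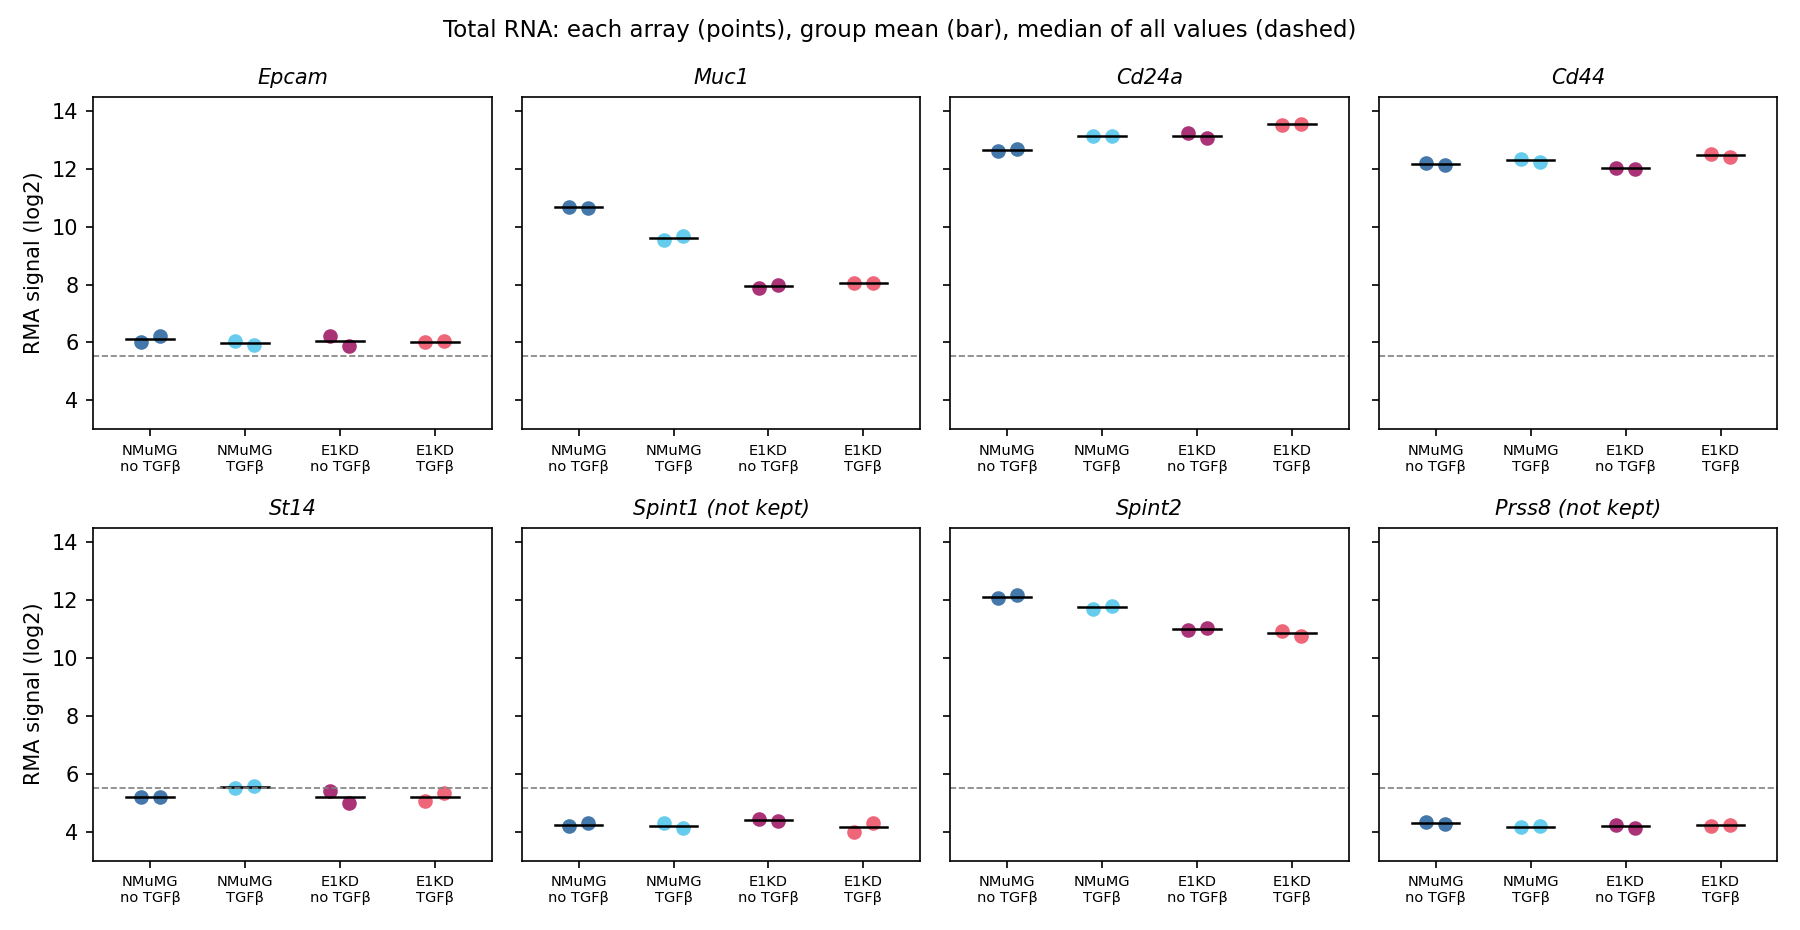
Log2 signal (RMA, vertical axis) of the 8 genes in total RNA, with 1 point per array, the group mean as a bar and the median of all values (5.52) as a dashed line; horizontal axis, the 4 states of the cells. Muc1 steps down from NMuMG to E1KD and, in NMuMG, from about 10.68 to 9.605 with TGFβ, Spint2 is lower in E1KD, and Spint1 and Prss8 lie below the dashed line in every array shown.

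Muc1 was the member that moved most in total RNA. In untreated NMuMG cells it read 10.69 and 10.66, and after TGFβ 9.54 and 9.67, so both treated arrays lay below both untreated ones. In E1KD cells it read 7.89 and 7.99 without TGFβ and 8.06 and 8.04 with it, below every NMuMG array. TGFβ lowered Muc1 in NMuMG by 2.1-fold (log2 difference -1.07, SE 0.105, limma adjusted p = 6.97e-06). In E1KD the TGFβ difference was 0.11 (adjusted p = 0.543), and the difference between the responses of the lines was 1.18 (SE 0.148, adjusted p = 6.11e-05). Loss of hnRNP E1 was accompanied by a 6.66-fold lower signal in untreated cells (adjusted p = 1.33e-11) and a 2.94-fold lower signal in treated cells (adjusted p = 1.35e-08).

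Spint2, the gene for the inhibitor HAI-2, was likewise lower in E1KD. Its probe set 1438968_x_at read 12.06 and 12.17 in untreated NMuMG cells, 11.70 and 11.80 in treated NMuMG cells, 10.95 and 11.05 in untreated E1KD cells and 10.93 and 10.77 in treated E1KD cells. All 4 E1KD arrays lay below all 4 NMuMG arrays. The E1KD signal was 2.17-fold lower without TGFβ (adjusted p = 1.22e-07) and 1.87-fold lower with it (adjusted p = 1.9e-06). The second probe set, 1451935_a_at, was 2.06-fold lower (adjusted p = 1.33e-06) and 2.12-fold lower (adjusted p = 1.04e-06) in the same contrasts. TGFβ lowered Spint2 in NMuMG by 1.29-fold (log2 difference -0.365, SE 0.0933, adjusted p = 0.0287), a call that was lost without any 1 of the 4 arrays (adjusted p 0.0863 to 0.288). The call was also lost by limma without the filter (adjusted p = 0.11) and with all 32 arrays in 1 fit (adjusted p = 0.218). The second probe set gave -0.315 for TGFβ in NMuMG (adjusted p = 0.116). In E1KD the difference was -0.15 (adjusted p = 0.305) by the first probe set and -0.36 (adjusted p = 0.0231) by the second, and the difference between the lines was 0.215 (adjusted p = 0.389).

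Muc1 and Spint2 were the members called lower both with TGFβ in NMuMG and in E1KD, the Spint2 call with TGFβ being the weak one above. The stretches around their transcription starts were read from RefSeq (GRCm38.p6). The windows held 300 bases, 250 before and 50 after the start. Windows were held for 5 of the 8 genes (Epcam, Muc1, Cd44, Spint1 and Spint2). The E-box CACCTG, the letters bound by EMT repressors of the Snail and ZEB families, was searched on both strands and was present in 20.2% of 32851 such windows, and at least 2 times in 2.88%. Muc1 held 2 matches, Spint2 3 and Epcam 2, and Cd44 and Spint1 held none. The Muc1 and Spint2 matches are printed within 30 bases, 5′ to 3′ on the strand of the gene, with the E-box or its reverse complement CAGGTG in capitals.
Muc1, match at position -234 from the start site, chr3:89228810-89228839, plus strand: cctccacatacaCACCTGgggtagtcaagg
Muc1, position -70, chr3:89228974-89229003, plus strand: tttgttacctgtCACCTGctctgactgtgc
Spint2, position -74, chr7:29282034-29282063, minus strand: cgggggcggtgcCAGGTGcaggccgcagag
Spint2, position -55, chr7:29282015-29282044, minus strand: aggccgcagagcCAGGTGcggggccctccg
Spint2, position -9, chr7:29281969-29281998, minus strand: gccccgccccgcCAGGTGcgccccaccccc
The SMAD-binding letters CAGAC, on both strands, were in 49.6% of all windows, 2 times in that of Spint2, once in those of Epcam and Spint1 and not in those of Muc1 and Cd44. The AP-1 letters TGANTCA were in 7.81% of all windows and, among the members, in that of Spint1. Epcam passed in no total RNA comparison, by a probe set that may also read other transcripts. No factor was measured at these sites, and whether the matches bear on any signal was not tested. The matches of the 3 motifs did not overlap each other.

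Cd24a went the other way. Probe set 1448182_a_at read 12.60 and 12.67 in untreated and 13.14 and 13.12 in treated NMuMG cells, and 13.24 and 13.05 in untreated and 13.53 and 13.55 in treated E1KD cells. The treated arrays lay above the untreated ones in each line, and untreated E1KD overlapped treated NMuMG. TGFβ raised it by 1.41-fold in NMuMG (log2 difference 0.495, SE 0.1, adjusted p = 0.00601) and by 1.31-fold in E1KD (0.395, adjusted p = 0.00927), and the 2 responses did not differ past the threshold (-0.1, adjusted p = 0.802). Untreated E1KD cells were 1.42-fold higher than untreated NMuMG cells (adjusted p = 0.000915), and treated ones 1.33-fold (adjusted p = 0.00552). The other probe sets, 1416034_at and 1437502_x_at, gave 0.375 (adjusted p = 0.229) and 0.555 (adjusted p = 0.228) in NMuMG, and rises of 1.51-fold (adjusted p = 0.00994) and 1.97-fold (adjusted p = 0.00503) in E1KD. The TGFβ calls of 1448182_a_at were weak: leaving out 1 array ended the NMuMG call in 3 of 4 cases (without untreated replicate 1 or either treated replicate, adjusted p 0.0524 to 0.0822) and the E1KD call in 3 of 4 (without untreated replicate 2 or either treated replicate, adjusted p 0.0505 to 0.133). The mean of all 3 probe sets of the gene gave 0.3133 for untreated E1KD over NMuMG (adjusted p = 0.082).

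Cd44 and the protease St14 changed little in total RNA. Cd44, by probe set 1423760_at, read 12.19 and 12.14 in untreated and 12.34 and 12.25 in treated NMuMG cells, where the log2 difference of 0.13 did not pass (adjusted p = 0.759). In E1KD it went from 12.03 and 12.01 to 12.51 and 12.42, a 1.36-fold rise (adjusted p = 0.0105) that did not pass without any 1 of 3 arrays (either untreated replicate or treated replicate 1, adjusted p 0.0562 to 0.0908). The other probe sets gave 0.325 (1434376_at, adjusted p = 0.208) and 0.18 (1452483_a_at, adjusted p = 0.391), and 1443265_at never exceeded the overall median. St14 read 5.20 and 5.20 in untreated and 5.51 and 5.57 in treated NMuMG cells, 5.39 and 5.00 in untreated and 5.06 and 5.32 in treated E1KD cells. Its TGFβ difference in NMuMG was 0.34 (95% interval -0.0435 to 0.724, adjusted p = 0.427).

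Epcam, Spint1 and Prss8 were low in total RNA and differed little between the groups. Epcam 1447899_x_at read 6 and 6.21, then 6.06 and 5.90 with TGFβ in NMuMG cells, and 6.21 and 5.88, then 6 and 6.05 in E1KD cells, and the 4 groups overlapped. Its knockdown difference in untreated cells was -0.06 (SE 0.191, adjusted p = 0.88). Spint1, the inhibitor HAI-1, lay between 4.00 and 4.45 in the 8 total RNA arrays, and Prss8 between 4.14 and 4.34. The untreated E1KD arrays were the highest for Spint1 (4.45 and 4.35) and the untreated NMuMG arrays the highest for Prss8 (4.34 and 4.26), at signals that did not pass the filter. For scale, the median signal of the 14406 probe sets that never exceeded the overall median was 3.805 to 3.85 in total RNA.

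**Figure D2:**
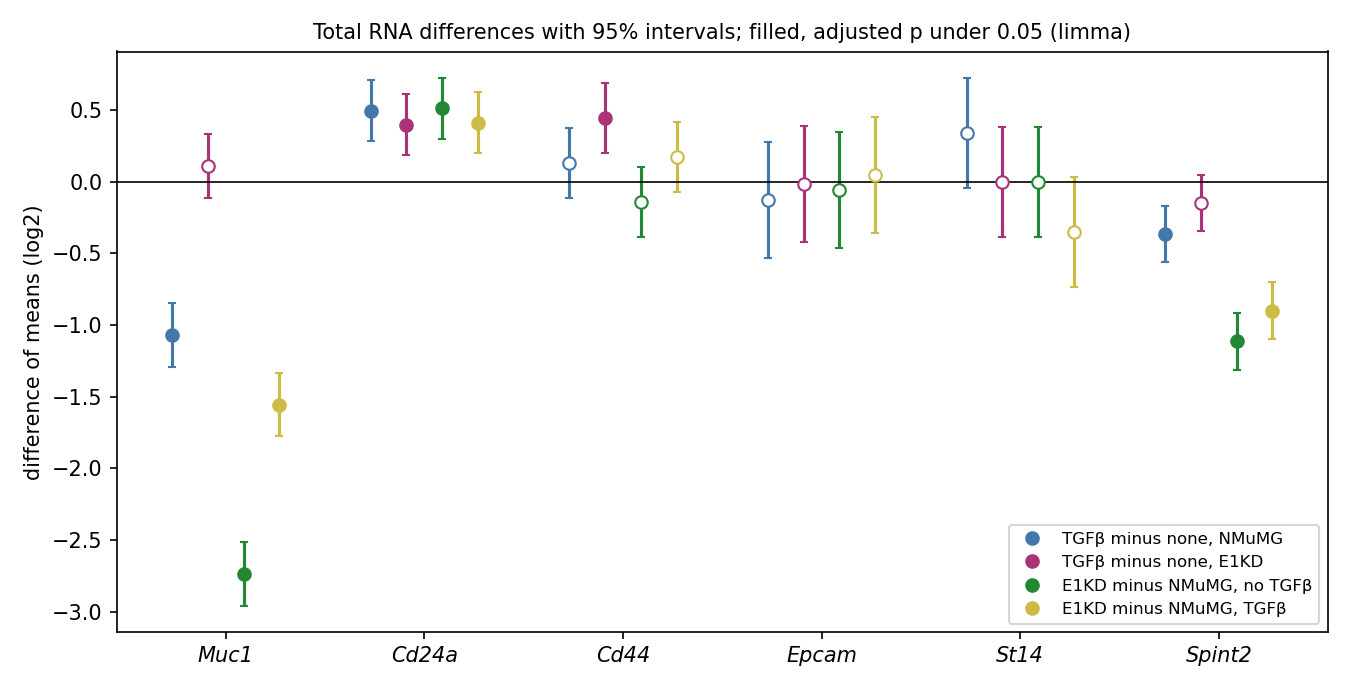
Difference of group means in total RNA (log2, vertical axis) for the 6 tested genes, with 95% intervals from limma; colours give the comparison, and filled points passed an adjusted p of 0.05. Muc1 reaches -2.73 in untreated E1KD against NMuMG cells, Cd24a lies between 0.395 and 0.51 in all 4 comparisons, and no Epcam or St14 point is filled.

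Across the members, 3 of 6 genes passed for TGFβ in NMuMG total RNA (1 higher, 2 lower), where 5.43% of all probe sets passed (3% higher, 2.43% lower). In E1KD 2 of 6 passed, both higher, against 21.2% of all probe sets (11.4% higher, 9.75% lower). For untreated E1KD against NMuMG 3 of 6 passed (1 higher, 2 lower) against 29.3% (15.8% and 13.5%), and for treated cells 3 of 6 (1 higher, 2 lower) against 27.2% (14.7% and 12.5%). The TGFβ response differed between the lines for 1 of 6, Muc1, against 11.4% (5.76% higher, 5.69% lower). The median member difference was 0.0025, 0.0525, -0.103, -0.153 and 0.16 in these 5 comparisons, next to medians over all probe sets of 0.005, -0.015, -0.02, -0.03 and -0.02. The comparisons share arrays, so they are not independent of one another.

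The wider families around the members were counted in the same tests, each gene by 1 probe set. Over all probe sets, 3% were higher and 2.43% lower with TGFβ in NMuMG. In untreated E1KD against NMuMG cells 15.8% were higher and 13.5% lower. The list counts are small and were not tested against these shares. Among 7 measured genes listed as membrane-anchored serine proteases, Prss22 rose with TGFβ in NMuMG (log2 difference 1.01, limma adjusted p = 0.00105) and none fell. Whether each listed protease is anchored in the membrane was not checked. In untreated E1KD against NMuMG cells 1 was lower, Tmprss2 (-1.08). Among 14 matriptase and prostasin substrates and receptors, 3 rose and 2 fell with TGFβ in NMuMG, with the receptor Mst1r at 1.93 and the laminin chain Lamb3 at 1.1, and in untreated E1KD cells 2 were higher and 4 lower, with Egfr at -1.73 and Tfrc at -1.17. Of 10 genes listed as serine protease inhibitors 0 passed for TGFβ in NMuMG (limma, 2 at an unadjusted p under 0.05), and 3 were higher in untreated E1KD cells, with Serpinb9, an inhibitor of granzyme B, at 1.17 and Serpinh1, a collagen chaperone of the serpin family without inhibitor activity, at 1.17. Of 15 EpCAM partners and processing genes 1 rose (Cldn4, 2.52) and 2 fell (Tspan8, -1.04; Cd9, -0.36) with TGFβ in NMuMG, and in untreated E1KD cells 1 was higher and 5 lower, with Tspan8 at -3.17 and Cd9 at -1.52. Of 21 other epithelial mucins and surface glycoproteins 3 rose and 2 fell with TGFβ in NMuMG and 5 were higher and 6 lower in untreated E1KD cells, among them Lsr at -1.38, Crb3 at -1.35 and Ly6e at 2.03. Of 15 genes for CD44 ligands, anchors and splicing regulators 2 rose and 1 fell with TGFβ in NMuMG, and in untreated E1KD cells 3 were higher and 3 lower, with Ezr at -0.95 and Rbfox2 at 0.80.

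Of 17 genes listed for mucin-type O-glycan and sialic acid synthesis, mostly enzymes that build sugar chains carried by Muc1, Cd24a and Cd44 proteins, 2 were higher and 6 lower in untreated E1KD than in untreated NMuMG cells, where 15.8% of all probe sets were higher and 13.5% lower. The lower ones included the branching enzymes Gcnt1 (-3.13, adjusted p = 1.68e-08) and Gcnt3 (-2.74, adjusted p = 6.71e-07) and the sialyltransferase St3gal1 (-1.98, adjusted p = 5.73e-08), beside Muc1 at -2.73. With TGFβ in NMuMG 1 rose and 3 fell, with Gcnt1 at -1.18 and St3gal1 at -0.98. Of all probe sets 3% rose and 2.43% fell there. With TGFβ in E1KD 6 were higher and 1 lower, against 11.4% and 9.75% of all probe sets. The difference between the lines passed for 5, all higher, against 5.76% higher and 5.69% lower of all probe sets. The list median was -0.425 for untreated and -0.04 for treated E1KD against NMuMG cells, -0.04 for TGFβ in NMuMG, 0.36 for TGFβ in E1KD and 0.48 for the difference between the lines.

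Between the gradient pools, Cd24a and Cd44 crossed from the M side to the P side with TGFβ in NMuMG cells, and Muc1 crossed the other way. P minus M compares equal amounts of labelled RNA after scaling, so it gives the distribution of a transcript relative to others and not the number of molecules in a pool. The pools also differed in general: in untreated NMuMG cells 71.2% of all probe sets passed for P minus M, with a median difference of -0.135, and the low-signal probe sets read 3.91 in the M pool and 4.175 in the P pool, against 4.055 to 4.2 in the other fractions. The part of that pool difference in the members' shifts was not tested.

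**Figure D3:**
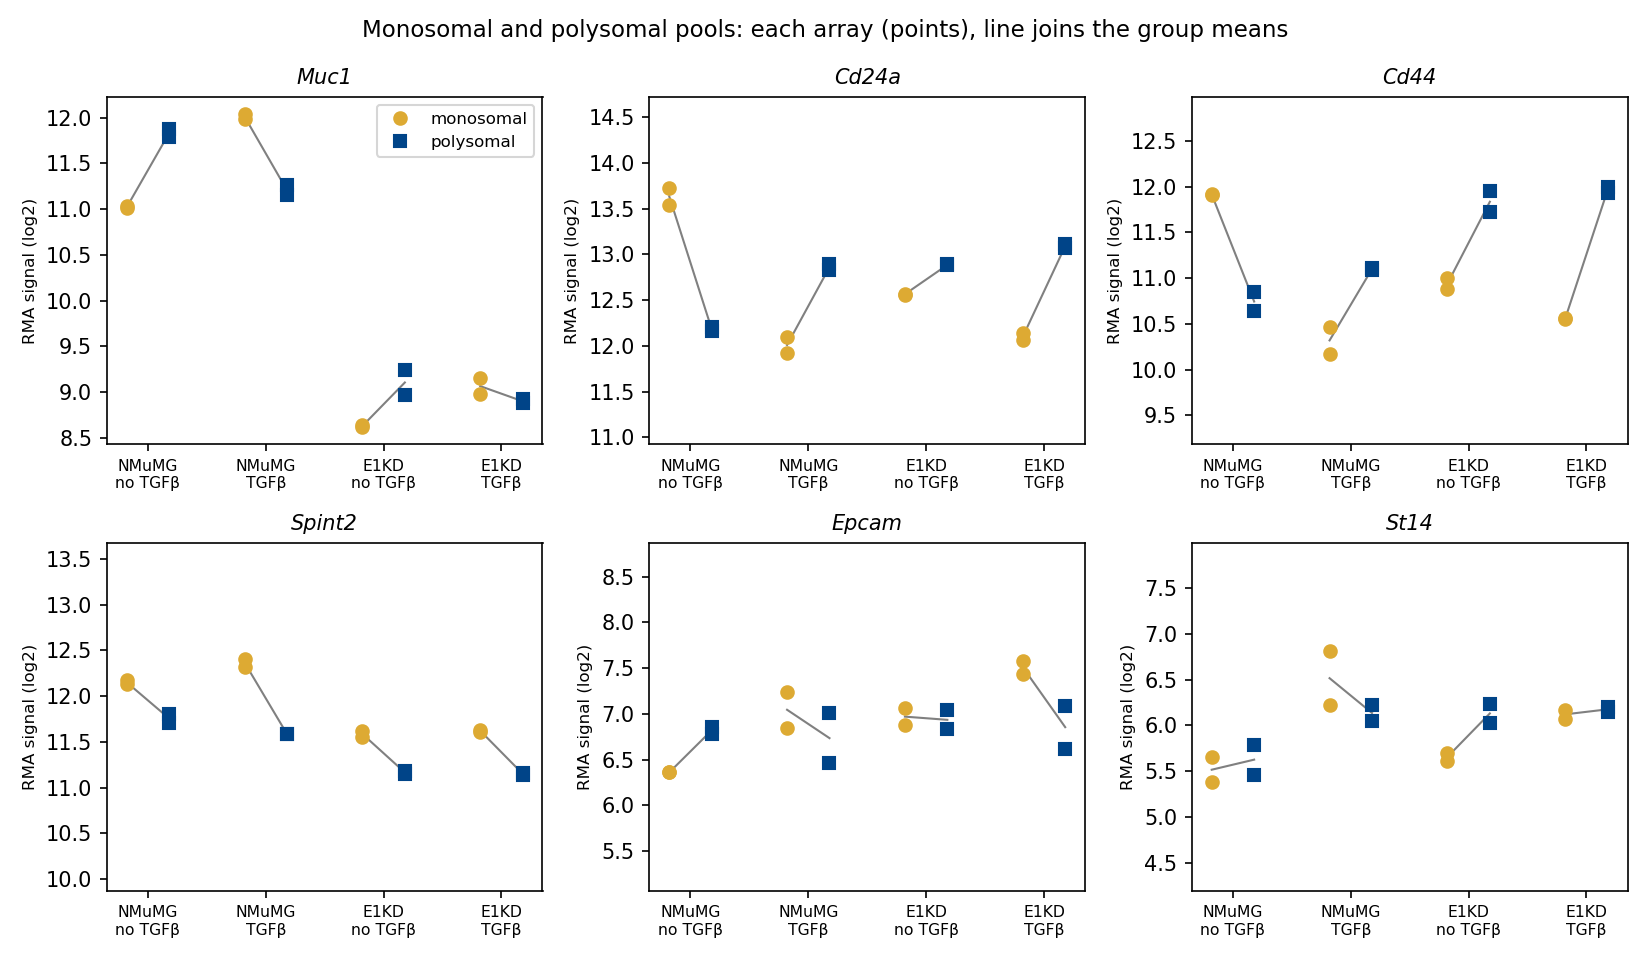
Log2 signal (RMA, vertical axis) of 6 genes in the monosomal and polysomal pools of each state, with 1 point per array and lines joining the group means; every panel spans the same height. The lines of Cd24a and Cd44 slope down in untreated NMuMG cells and up in the other 3 states, the Muc1 line turns from up to down with TGFβ in NMuMG, and Spint2 slopes down in all 4 states.

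Cd24a (1448182_a_at) in untreated NMuMG cells read 13.54 and 13.73 in M and 12.16 and 12.21 in P. After TGFβ it read 11.92 and 12.10 in M and 12.83 and 12.89 in P, so the order of the pools was turned round with no overlap. P minus M was -1.45 without and 0.85 with TGFβ, a shift of 2.30 (SE 0.142, adjusted p = 2.72e-09). In E1KD cells it read 12.56 and 12.57 in M and 12.89 and 12.88 in P without TGFβ, and 12.06 and 12.14 in M and 13.07 and 13.11 in P with it, P above M in both. The E1KD shift was 0.67 (adjusted p = 0.00331), and the E1KD minus NMuMG difference was -1.63 (SE 0.2, adjusted p = 2.72e-05). The other probe sets shifted by 2.08 and 1.595 in NMuMG (adjusted p = 4.36e-07 and 0.000347), with line differences of -1.625 (adjusted p = 0.000794) and -1.05 (adjusted p = 0.0797). In untreated E1KD the P minus M of 0.32 (adjusted p = 0.0201) did not pass without any 1 of its 4 arrays (adjusted p 0.069 to 0.0865).

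Cd44 (1423760_at) read 11.91 and 11.92 in M and 10.85 and 10.64 in P of untreated NMuMG cells, and 10.17 and 10.47 in M and 11.11 and 11.09 in P of treated ones. Again the pools did not overlap and their order was reversed by TGFβ. In E1KD cells P lay above M in both states, at 11.95 and 11.72 over 10.88 and 11 without TGFβ and at 12 and 11.93 over 10.57 and 10.55 with it. The shift was 1.95 in NMuMG (SE 0.163, adjusted p = 4.61e-08) and 0.51 in E1KD (adjusted p = 0.0288), and the E1KD minus NMuMG difference was -1.44 (SE 0.23, adjusted p = 0.000232). The small E1KD shift lost its call under 10 of the 17 alternatives tried.

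The probe sets of Cd44 did not move alike. Probe set 1434376_at moved like 1423760_at, with a shift of 2.25 in NMuMG (adjusted p = 5.82e-07). Probe set 1452483_a_at read 8.98 and 9 in M and 10.36 and 10.32 in P of untreated NMuMG cells, P minus M 1.35 (adjusted p = 1.87e-07), where the other probe sets gave -1.17 and -1.165. After TGFβ it read 9.12 and 9.56 in M and 10.62 and 10.82 in P, so its shift was 0.03 (adjusted p = 0.889). In E1KD its P minus M was 1.255 without and 1.97 with TGFβ, the shift was 0.715 (adjusted p = 0.00993), and the difference between the lines was 0.685 in the opposite direction (adjusted p = 0.0498). With the mean of the 3 probe sets the difference between the lines was -0.72 (adjusted p = 0.03) in place of -1.44. Cd44 transcripts differ in their exons and 3′ ends, and whether the probe sets read different transcripts was not tested.

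**Figure D4:**
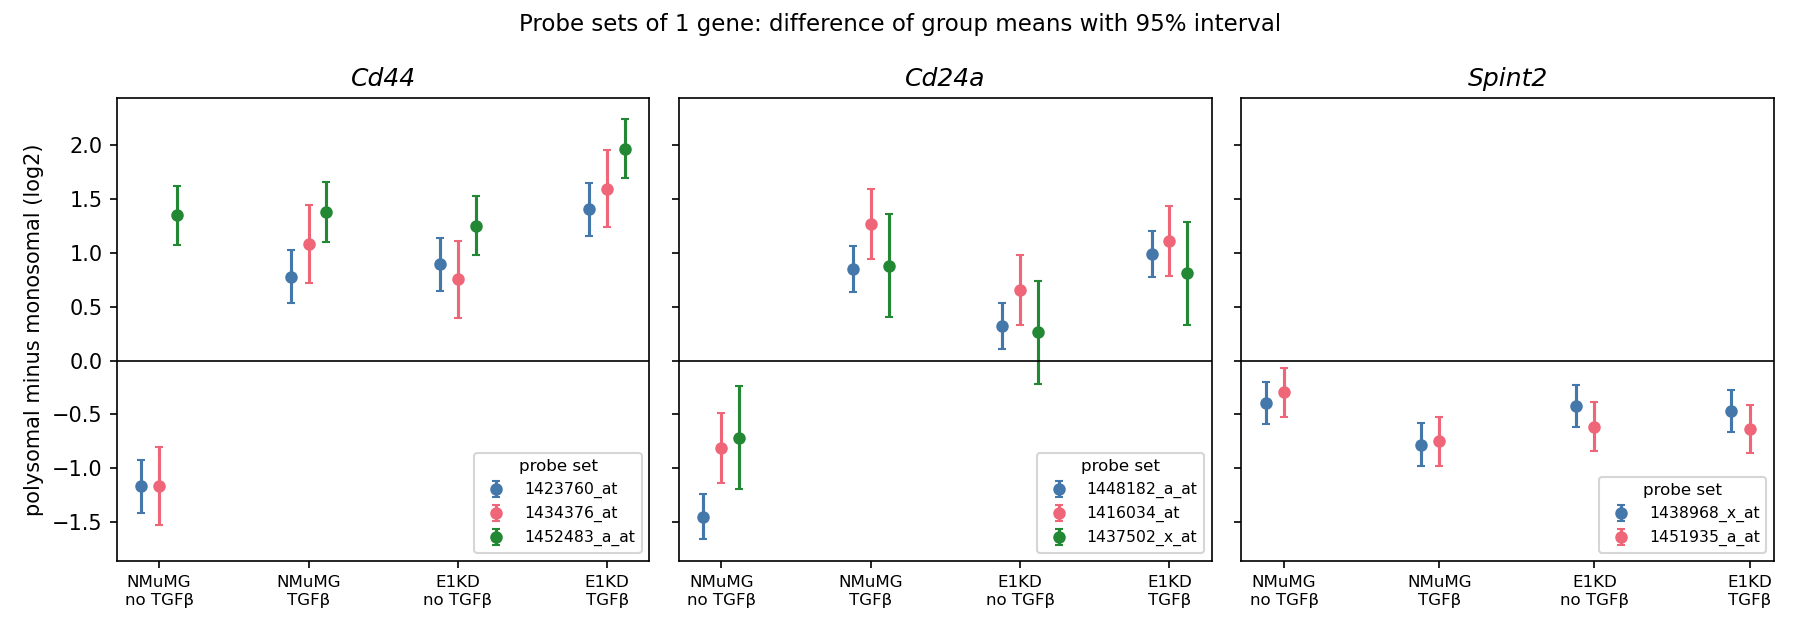
Polysomal minus monosomal difference (log2, vertical axis) with 95% intervals for each probe set that passed the filter, in the 4 states of the cells (horizontal axis), for Cd44, Cd24a and Spint2; colours give the probe set. In untreated NMuMG cells the Cd44 probe set 1452483_a_at stands at 1.35 while the other Cd44 probe sets stand near -1.17, and the probe sets of Cd24a and of Spint2 lie on the same side of 0 in each state.

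Muc1 in NMuMG cells read 11.03 and 11.01 in M and 11.87 and 11.79 in P without TGFβ, and 11.98 and 12.04 in M and 11.26 and 11.15 in P with it. P minus M went from 0.81 to -0.805, a shift of -1.615 (SE 0.148, adjusted p = 1.19e-07). With TGFβ Muc1 thus read lower in the P pool and higher in the M pool. In E1KD cells it read 8.62 and 8.64 in M and 8.97 and 9.24 in P without TGFβ, and 8.98 and 9.15 in M and 8.88 and 8.92 in P with it. The E1KD shift was -0.64 (adjusted p = 0.00556), and the difference between the lines was 0.975 (SE 0.21, adjusted p = 0.00214). That difference did not pass when the immunoprecipitation arrays were put in the same fit (adjusted p = 0.111). In untreated E1KD P minus M was 0.475 (adjusted p = 0.00198), which did not pass in that fit either (0.129), and in treated E1KD it was -0.165 (adjusted p = 0.186), or -0.4377 (adjusted p = 0.000391) after quantile normalization.

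Spint2 was lower in P than in M in all 4 states. In NMuMG cells 1438968_x_at read 12.13 and 12.17 in M and 11.71 and 11.80 in P without TGFβ, and 12.32 and 12.41 in M and 11.58 and 11.59 in P with it. In E1KD cells it read 11.55 and 11.62 in M and 11.15 and 11.18 in P, and 11.61 and 11.63 in M and 11.16 and 11.14 in P. P minus M was -0.395, -0.78, -0.42 and -0.47 in these 4 states, each past the threshold (adjusted p from 2.81e-06 to 0.00208), and 1451935_a_at gave -0.295, -0.75, -0.615 and -0.635. The NMuMG shift was -0.385 (adjusted p = 0.0163) and the E1KD shift -0.05 (adjusted p = 0.8), but the difference between them was not past the threshold (0.335, adjusted p = 0.173). The NMuMG shift did not pass with all 32 arrays in 1 fit (adjusted p = 0.0913), and P minus M in untreated NMuMG became -0.1675 (adjusted p = 0.128) when centred on Actb and Gapdh.

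St14 and Epcam gave small and unsteady differences between the pools. St14 read 5.38 and 5.65 in M and 5.79 and 5.46 in P of untreated NMuMG cells, and 6.81 and 6.22 in M and 6.05 and 6.22 in P of treated ones. In E1KD cells it read 5.70 and 5.61 in M and 6.23 and 6.03 in P without TGFβ (P minus M 0.475, adjusted p = 0.052), and 6.07 and 6.17 in M and 6.2 and 6.15 in P with it. No St14 comparison passed with all arrays, but 4 of them passed under some alternative. These were TGFβ in NMuMG total RNA with only the arrays compared (0.34, adjusted p = 0.0329), P minus M in untreated E1KD under 3 alternatives (adjusted p 0.0417 to 0.0466), P minus M in treated NMuMG after quantile normalization (-0.5426, adjusted p = 0.0426) or without treated M replicate 2 (-0.675, adjusted p = 0.00533), and the NMuMG shift without untreated P replicate 2 (-0.655, adjusted p = 0.0491) or treated M replicate 2 (-0.785, adjusted p = 0.00746). Epcam 1447899_x_at read 6.36 and 6.36 in M and 6.78 and 6.86 in P of untreated NMuMG cells (P minus M 0.46, adjusted p = 0.0407, and 0.0767 to 0.138 without any 1 array), and 7.24 and 6.85 in M and 6.46 and 7.01 in P of treated ones (-0.31, adjusted p = 0.194). In treated E1KD cells it read 7.58 and 7.44 in M and 6.62 and 7.09 in P (-0.655, adjusted p = 0.00729), and in untreated ones 7.06 and 6.88 in M and 7.04 and 6.83 in P. The treated E1KD call was lost without replicate 1 of either pool (adjusted p = 0.0514 for M and 0.112 for P). Its NMuMG shift of -0.77 (adjusted p = 0.0183) did not pass without treated M replicate 1 (-0.575) or treated P replicate 1 (-0.495). The untreated NMuMG M pool, where Epcam was lowest, was also the fraction with the lowest signal of low probe sets. Spint1 lay between 4.50 and 5.63 and Prss8 between 4.44 and 5.73 over the 16 fraction arrays.

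For P minus M, 5 of the 6 genes passed in untreated NMuMG cells, 2 higher and 3 lower, where 71.2% of all probe sets did (29.3% higher, 41.9% lower), and 4 of 6 in treated NMuMG cells, 2 each way, against 49.7% (27.6% and 22.1%). In E1KD cells 4 of 6 passed without TGFβ, 3 higher and 1 lower, against 35% (16.8% and 18.2%), and 4 of 6 with it, 2 each way, against 60.7% (34% and 26.6%). The shift passed for 5 of 6 in NMuMG, 2 higher and 3 lower, against 70.4% (40.1% and 30.3%), and for 3 of 6 in E1KD, 2 higher and 1 lower, against 28.7% (20.9% and 7.73%). The difference between the lines passed for 3 of 6, 1 higher and 2 lower, against 36.5% (13.1% and 23.5%). The median shift of the members was -0.438 in NMuMG and -0.235 in E1KD, next to 0.09 and 0.08 over all probe sets. Among the neighbours of CD44, the shift in NMuMG was past the threshold for 14 of 15 genes, 11 higher and 3 lower, with the CD44 anchors Rdx at 2.54 and Msn at 2.12 and the splicing factors Hnrnpm at 3.52 and Hnrnph1 at 3.005. For O-glycan synthesis 10 of 17 were higher and 6 lower, with Gcnt2 at 3.56 and C1galt1c1 at 2.71, and with Fut8, which acts on N-glycans, at 2.74. The other lists gave 0 higher and 2 lower of 7 proteases, 7 and 4 of 14 substrates, 3 and 2 of 10 inhibitors, 7 and 5 of 15 EpCAM partners and 6 and 9 of 21 mucins and surface glycoproteins.

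The study sought transcripts that met set ratios: M over P of at least 2 without TGFβ, P over M of at least 2 with it, a total RNA change of at most 2 and a combined induction of at least 5 in NMuMG, and P over M of at least 2 in both states, a total change of at most 2 and an induction under 2 in E1KD. The ratios here are those of log2 means, whereas the study averaged raw signal, and its further limits on the immunoprecipitates were not applied here. No member probe set met all 8. Cd44 1434376_at and 1452483_a_at each met 6. The first met 3 of 4 in NMuMG (2.24, 2.12 and 1.09, and an induction of 4.76) and 3 of 4 in E1KD, where its P over M ratio without TGFβ was 1.69. Cd24a 1448182_a_at reached an induction of 4.92, with M over P at 2.73 and P over M at 1.8. Cd44 1452483_a_at met all 4 E1KD limits and 2 of 4 in NMuMG, and Muc1 had an induction of 0.326. The limits on total RNA change and on E1KD induction are upper bounds only, and every member probe set that passed the filter met them. Muc1, which fell with TGFβ in NMuMG, thus still met 1 of 4 limits in NMuMG and 2 of 4 in E1KD. How many of all probe sets met as many limits as Cd44 was not counted. The means of 2 replicates stand behind each ratio, so values next to a limit, such as 4.92 and 4.76 next to 5, are not separated from it by a test.

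In the immunoprecipitates the labels of 2 arrays, 13B and 14B, conflict. Arrays 13A and 14B carry titles of untreated cells and 14A and 13B of treated cells, whereas the descriptions name TGFβ for 14A and 14B. For every other array number, the A and B arrays carry titles of the same condition. Groups follow the titles here, and the values by array number are given beside them. Cd44 (1423760_at) read 9.72 and 9.77 in the arrays titled untreated and 9.32 and 10.26 in those titled treated with α-hnRNP E1, against 10.49 and 10.40 (untreated) and 10.81 and 10.71 (treated) with IgG. Every hnRNP E1 array lay below every IgG array. The antibody difference, averaged over treatments, was -0.835 (SE 0.186, adjusted p = 0.0164), and the other probe sets gave -1.16 (adjusted p = 0.00823) and -0.84 (adjusted p = 0.00727).

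Cd24a (1448182_a_at) read 12.85 and 12.66 in the arrays titled untreated and 12.52 and 12.83 in those titled treated with α-hnRNP E1, against 12.91 and 13.01 and then 13.12 and 13.24 with IgG. These did not overlap either. The difference was -0.355 (SE 0.099, adjusted p = 0.0359), with -0.395 and -0.55 by the other probe sets. Neither the Cd24a nor the Cd44 call held without any 1 of the 4 IgG arrays (adjusted p 0.0805 to 0.134 and 0.0577 to 0.0651), where the lone array left in that IgG group is assumed to vary like the other groups, and the Cd24a call also ended without array 14B or 14A (adjusted p = 0.0812 and 0.0667). Neither transcript read higher with α-hnRNP E1 than with IgG. Signals are relative after scaling and no array held the input of the precipitation, so they do not give the amount of a transcript brought down. Of the 6 genes 2 passed, both lower, where 25.6% of all probe sets passed, 14% higher and 11.7% lower.

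Muc1 read 9.22 and 10.36 in the arrays titled untreated and 10.38 and 9.61 in those titled treated with α-hnRNP E1, and 10.57 and 10.52, then 10.14 and 10.05, with IgG. The antibody difference of Muc1 was -0.4275 (adjusted p = 0.278), and it passed by array number (adjusted p = 0.00433) and without array 14B (-0.7125, adjusted p = 0.0366). The replicates of each hnRNP E1 group stood apart, and by array number they fell together instead, with 9.22 and 9.61 on arrays 13 and 10.38 and 10.36 on arrays 14. Spint2 showed the same split, with 10.23 and 10.23 on arrays 13 and 10.76 and 10.69 on arrays 14, and 10.32 to 10.53 over the IgG arrays. As titled, the TGFβ difference with α-hnRNP E1 passed for 0 of 6 genes and for 0% of all probe sets (limma, 403 at an unadjusted p under 0.05), with 0.205 for Muc1 and 0.035 for Spint2. By array number it was 0.955 for Muc1 (adjusted p = 0.00119) and 0.495 for Spint2 (adjusted p = 0.00546), and -0.445 for Cd44 (adjusted p = 0.156), so 2 of 6 passed, both higher, against 14.7% of all probe sets (6.09% higher, 8.6% lower). The sources used here do not state which labels are right. With IgG the TGFβ difference passed for 0 of 6 genes, against 0.00393% of all probe sets, at -0.45 for Muc1 and 0.315 for Cd44, and 1765 probe sets had an unadjusted p under 0.05.

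**Figure D5:**
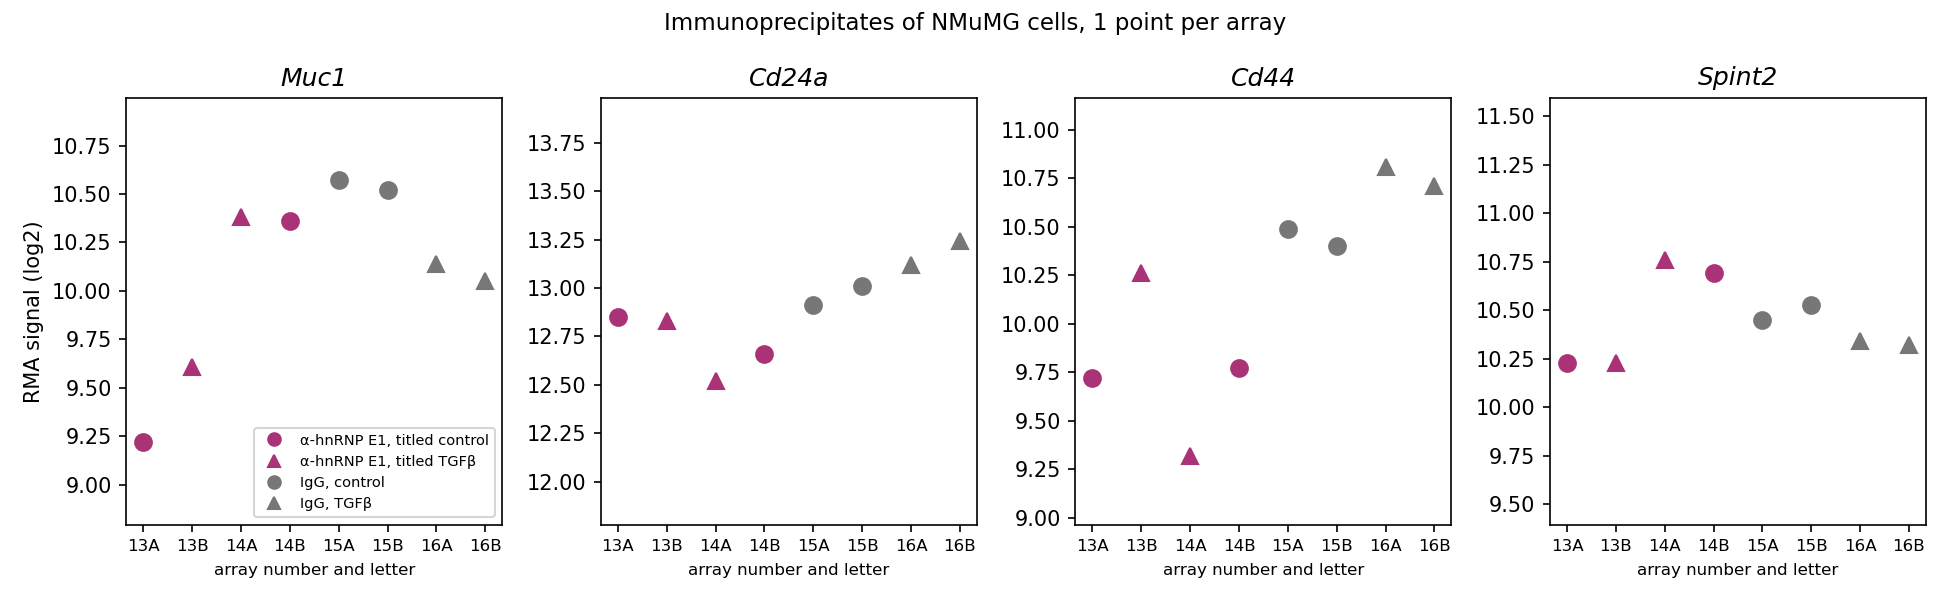
Log2 signal (RMA, vertical axis, the same span in every panel) of 4 genes in each immunoprecipitate of NMuMG cells, with arrays named by number and letter; purple is α-hnRNP E1, grey is IgG, circles are titled untreated and triangles TGFβ. For Muc1 and Spint2 the hnRNP E1 arrays pair by number (13 low, 14 high) and not by title, and for Cd44 and Cd24a all hnRNP E1 arrays lie below all IgG arrays.

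Of the other members, St14 lay between 5.29 and 5.92 and Epcam 1447899_x_at between 5.59 and 6.34 over the 8 immunoprecipitates, with antibody differences of -0.1375 (adjusted p = 0.396) and 0.005 (adjusted p = 0.988). Spint1 lay between 4.19 and 4.52 and Prss8 between 4.12 and 4.64.

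Finally, the patterns of the members over the 12 conditions of total, M and P RNA were compared as a description, since the points share fractions and arrays. Cd24a and Cd44 followed each other with Pearson's r = 0.849, Muc1 and Spint2 with 0.818 and Epcam and St14 with 0.805. Epcam and Cd44 ran opposite (-0.821). Epcam group means ran from 5.98 to 6.105 in total RNA and from 6.36 to 7.51 in the M and P pools. The low-signal probe sets also read lower in total RNA, at 3.805 to 3.85, than in the pools, at 3.91 to 4.2. The part of that offset in the Epcam and St14 correlations was not tested. Among 8343 genes with enough variation, those most like Muc1 were Hpx (0.974), Etv4 (0.967) and Tspan33 (0.967), and those most like Spint2 were Lsr (0.96), Tmem158 (0.948) and Srebf2 (0.937). Nipa1 (0.968), Iftap (0.958) and Ell2 (0.958) were most like Cd24a, and Zfp90 (0.986), Mettl14 (0.984) and Larp7 (0.984) most like Cd44. For the members near background, Insyn2a (0.991), Rgs14 (0.987) and Krt78 (0.985) were most like Epcam, and Rbms3 (0.931), Atp2a1 (0.929) and Elavl2 (0.927) most like St14.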

How the data were processed

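RNA of 32 samples was hybridised to Affymetrix mouse arrays. The deposited values are log2 signals, computed by the authors with RMA (Expression Console) and given to 2 decimals. They took detection calls from MAS5 and dropped probe sets rarely called present, calls that were not used here. RMA brings arrays to a common distribution, so levels are relative, and the number of arrays limits precision. Probe sets above the overall median of 5.52 in at least 8 arrays were kept, without 64 controls; 22090 had 1 symbol, 621 several and 2721 none. Groups came from the titles. limma 3.58.1 (R 4.3.3) fitted the 24 arrays of total and gradient RNA and the 8 immunoprecipitates separately (12 and 4 residual degrees of freedom), with Benjamini-Hochberg adjustment over all kept probe sets at 0.05. The polysome shift is polysomal minus monosomal with TGFβ, less the same without it. A gene stood by its kept probe set of highest mean over the 24 arrays. Named are all members, at most 4 called genes per list of 7 lists, the 3 genes most like each member, Pcbp1 and identity markers. Members and lists were chosen with earlier results of these data known. Scripts were tested on simulated data. Alternatives changed the filter, the arrays fitted, the block, the intensity trend, the scaling, the probe set summary and the immunoprecipitate labels, or left out 1 array.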

Additional observations from a re-analysis of the deposited data

Results flagged for a closer look

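For 3 members a response to TGFβ differed between NMuMG and E1KD by a test of the difference itself. Muc1 fell with TGFβ in NMuMG total RNA and did not pass in E1KD, with a difference between the lines of 1.18 on the log2 scale (adjusted p = 6.11e-05), and its polysome shift differed by 0.975 (adjusted p = 0.00214). The polysome shift was smaller in E1KD for Cd24a, by -1.63 (adjusted p = 2.72e-05), and for Cd44, by -1.44 (adjusted p = 0.000232) by probe set 1423760_at, where 23.5% of all probe sets were called lower and 13.1% higher in that comparison.
For Cd44 the probe set 1452483_a_at went the other way in that comparison (0.685, adjusted p = 0.0498), and the mean of its 3 probe sets gave -0.72 (adjusted p = 0.03).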

How the results depend on the processing

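The 2-replicate groups limit what can be called. Of 90 gene values, 35 passed in no fit and were left out of the counts that follow. Another, the TGFβ difference of Muc1 in E1KD total RNA, also passed in none but is included in these counts. Under the alternatives other than leaving out an array, values with a call somewhere kept direction and side of the threshold 462 times, lost the call 25 times, gained one 12 times and reversed 2 times; without 1 array these counts were 261, 41, 6 and 4. The cause was not tested. Muc1 kept its call under every alternative for TGFβ in NMuMG (-1.186 to -1.005) and for untreated E1KD against NMuMG (-2.879 to -2.657), as did Spint2 in the latter (-1.187 to -1.038) and Cd24a and Cd44 for the NMuMG shift (1.992 to 2.395 and 1.41 to 2.1).

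Counts of called genes among 6 moved as follows. For TGFβ in E1KD total RNA 2 became 1 with all 32 arrays in 1 fit and 0 centred on Actb and Gapdh, where Muc1 turned to -0.0075. For P minus M in untreated E1KD 4 became 2, for the NMuMG shift 5 became 3 and for IgG with TGFβ 0 became 1 with only the arrays compared. For the E1KD shift 3 became 1 with all 32 arrays. For hnRNP E1 against IgG 2 became 1 with the replicate block, where Cd24a no longer passed (adjusted p = 0.0568), and for hnRNP E1 with TGFβ 0 became 2 by array number, where Spint2 centred on Actb and Gapdh was -0.0075. Without 1 array the counts were 1 to 2 for TGFβ in NMuMG (3 with all arrays), 0 to 1 for TGFβ in E1KD (2), and 0 to 2 for hnRNP E1 against IgG (2), and the hnRNP E1 difference with TGFβ ran from -0.365 to 0.775 for Muc1 and from -0.23 to 0.3 for Spint2. The main fit did not pair samples by replicate number. Differences between replicates 1 and 2 correlated between conditions at -0.383 to 0.323 (66 pairs, median 0.0646, 21 over 0.1). Whether arrays of 1 replicate number came from the same cultures was not tested. The replicate block changed no other count by over 1.5 times. Centring on Actb and Gapdh moved the median of all probe sets by over 0.1, to -0.133 for TGFβ in E1KD, -0.197 for the difference between the lines, 0.283 for P minus M in treated NMuMG and 0.16 in treated E1KD, 0.198 for the E1KD shift, and 0.0925 in untreated NMuMG, where quantile normalization gave 0.0562 and the deposited values -0.135. Quantile normalization also moved it from 0.09 to -0.0577 for the NMuMG shift.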
